A study of Mus musculus with 6 samples.

Results

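Mural cells are the pericytes and smooth muscle cells that wrap the endothelium of blood vessels, and 10 of their genes were followed in mouse brain tumours: Rgs5, Kcnj8, Abcc9, Acta2, Tagln, Myh11, Cnn1, Anpep, Vtn and Ndufa4l2. Their probes were found by gene symbol in the platform's annotation. The array held 14 probes for 9 of the 10 genes, among 16593 genes named on it, and no probe carried the symbol Ndufa4l2. RNA came from whole brain tumours of SCID mice, a strain without mature T and B cells, that had received transplanted cells of 1 of 2 genotypes, and each group held 3 tumours. The Olig2cre/cre tumours (Olig2cre/cre;p53fl/fl;hEGFRvIII) carried cre at both Olig2 alleles. The Olig2cre/+ tumours (Olig2cre/+;p53fl/fl;hEGFRvIII) carried cre at 1 of them. Both genotypes shared floxed p53 alleles, cre under control of the Olig2 locus and hEGFRvIII, a human EGF receptor that lacks part of its outer domain and signals without ligand. Tumours were collected when neurological symptoms appeared, at 45, 50 and 47 days for the tumours numbered 1, 2 and 3 of each genotype. Whether the tumours within a genotype arose from separate cell lines is not stated in the labels. P-values therefore measure only the spread between these samples, which may be technical.

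Pericytes sit on capillaries inside the basement membrane and help to keep the blood-brain barrier, while arteriolar smooth muscle cells contract to set blood flow. Rgs5 encodes a protein that switches off heterotrimeric G proteins and is among the best-known pericyte transcripts of the brain. Kcnj8 and Abcc9 encode the pore and the sulfonylurea receptor subunit of the ATP-sensitive potassium channel of vessel walls. Acta2, Tagln, Myh11 and Cnn1 belong to the contractile apparatus of smooth muscle, and in that cell type they are controlled by serum response factor through CArG boxes. Anpep is a cell surface aminopeptidase, Vtn is the adhesive protein vitronectin, and Ndufa4l2 is a paralogue of a respiratory chain subunit gene.

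The sequences just before the starts of Rgs5, Acta2, Kcnj8 and Abcc9 are shown because the levels reported below turn on these genes. Each is the 250 bases before the RefSeq gene start in GRCm38.p6, read 5′ to 3′ on the gene's strand. The windows lie at chr1:169655251-169655500 on the plus strand, chr19:34255374-34255623 on the minus strand, chr6:142571615-142571864 on the minus strand and chr6:142702275-142702524 on the minus strand. Capitals mark matches to a CArG box with 1 central C or G, to the MCAT element CATTCC or to the RBPJ element TGGGAA, all on both strands.
Rgs5: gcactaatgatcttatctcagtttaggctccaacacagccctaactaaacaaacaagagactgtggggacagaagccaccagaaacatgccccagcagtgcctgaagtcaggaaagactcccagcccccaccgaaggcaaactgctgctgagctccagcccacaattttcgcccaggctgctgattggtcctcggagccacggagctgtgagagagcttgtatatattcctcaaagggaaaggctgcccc
Acta2: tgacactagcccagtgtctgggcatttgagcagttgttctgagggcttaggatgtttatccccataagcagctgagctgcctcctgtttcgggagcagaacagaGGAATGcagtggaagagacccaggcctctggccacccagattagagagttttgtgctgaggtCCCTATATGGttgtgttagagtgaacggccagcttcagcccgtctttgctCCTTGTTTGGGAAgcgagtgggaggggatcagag
Kcnj8: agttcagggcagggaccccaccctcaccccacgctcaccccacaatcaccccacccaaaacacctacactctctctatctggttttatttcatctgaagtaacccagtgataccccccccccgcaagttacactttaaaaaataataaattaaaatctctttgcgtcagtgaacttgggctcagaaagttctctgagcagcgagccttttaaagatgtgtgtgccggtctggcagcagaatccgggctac
Abcc9: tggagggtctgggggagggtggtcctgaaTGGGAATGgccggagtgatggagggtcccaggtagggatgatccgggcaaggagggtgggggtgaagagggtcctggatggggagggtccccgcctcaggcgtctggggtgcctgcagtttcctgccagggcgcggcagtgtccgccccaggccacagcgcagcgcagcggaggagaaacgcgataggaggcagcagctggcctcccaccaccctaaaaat

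The Acta2 window held CCCTATATGG, first base 84 before the start, and CCTTGTTTGG, first base 34 before it, each a CArG box with 1 central C or G. It also held MCAT at 146 bases and an RBPJ match at 27 bases, and the RBPJ match overlaps the second CArG box. The Abcc9 window held overlapping matches to RBPJ and MCAT at 221 and 219 bases. No match to these motifs lay in the Rgs5 or Kcnj8 window. Among 32851 RefSeq windows of this length, 7.24% held a CArG box with 1 central C or G, 1.47% a CArG box with none, 12.6% MCAT and 21.6% RBPJ. Windows of 7 of the 10 genes were matched by symbol, and Tagln, Myh11 and Ndufa4l2 were not among them. Kcnj8 and Abcc9 are neighbours on chromosome 6, with 0 protein-coding genes between them.

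Levels are log2 intensities after background correction and quantile normalization, and a probe counts as detected on an array where its detection p-value was under 0.05. Each array detected 53.4% to 57.6% of its 25697 probes. The Olig2 probe read 5.86 to 6.44 in Olig2cre/cre tumours and 7.13 to 7.85 in Olig2cre/+ tumours (difference -1.34 ± 0.30, SE, adjusted p = 0.0555), and its place relative to the sequence that cre replaces is not known here. Over the tested probes Olig2cre/cre replicate 3 correlated at 0.886 and 0.928 with Olig2cre/cre replicates 1 and 2, and at 0.914 to 0.941 with the Olig2cre/+ tumours. It was thus no closer to its own group than to the other. The correlation of replicates 1 and 2 is not given here, so these values do not show which Olig2cre/cre tumour stands apart. For some genes results without single tumours, replicate 3 among them, are given below too.

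Of the 14 probes, 9 were detected on at least 3 of the 6 arrays and entered the test, for Rgs5, Kcnj8, Abcc9, Acta2 and Vtn. Rgs5 rose in the Olig2cre/cre tumours, and it was the 1 of 9 tested probes past the threshold, a limma adjusted p under 0.05 over 14606 probes. Over all tested probes 2.65% were called higher and 1.77% lower. Values of the groups did not overlap for 7 of the 9 probes, all higher in Olig2cre/cre, where 15.8% of all tested probes had no overlap in that direction. The 7 include 4 probes of Acta2 and 2 of Abcc9, so they are not separate genes. The median difference of the 9 probes was 1.27, against 0.02 over all tested probes. The 9 leave out 5 probes of low signal, and the Abcc9 probe ILMN_2623859 entered only through its 3 Olig2cre/cre arrays, so neither the count nor the median stands for the 10 genes. In whole-tumour RNA, fewer cells of a type and less RNA per cell cannot be told apart.

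**Figure D1:**
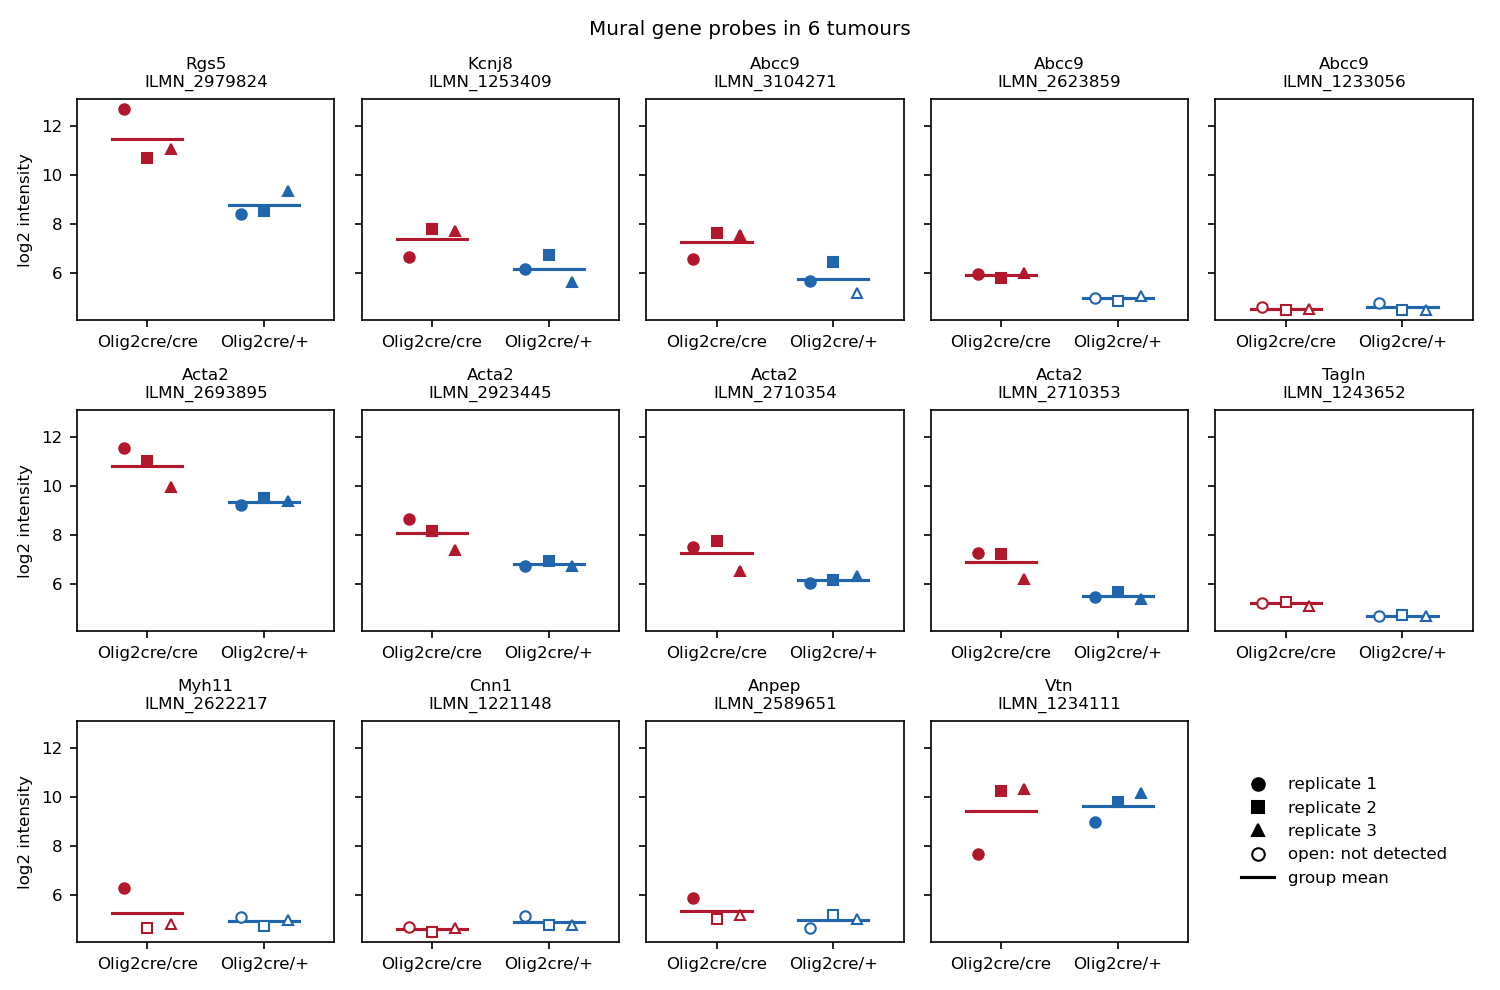
Log2 intensity of the 14 probes in each tumour, with Olig2cre/cre left of Olig2cre/+ in each panel; marker shapes give the replicate, open markers are arrays where the probe was not detected, and lines are group means. Rgs5 ran from 10.67 to 12.70 in Olig2cre/cre and from 8.41 to 9.35 in Olig2cre/+, while the Tagln and Cnn1 probes have open markers in all 6 tumours.

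Rgs5 read 12.70, 10.67 and 11.06 in Olig2cre/cre replicates 1 to 3, against 8.41, 8.52 and 9.35 in Olig2cre/+ replicates 1 to 3. All 3 Olig2cre/cre tumours lay above every Olig2cre/+ tumour, with replicate 1 the highest. The means were 11.48 ± 1.08 in Olig2cre/cre and 8.76 ± 0.52 in Olig2cre/+ (SD, n = 3 each), a 6.57-fold difference (log2 difference 2.72 ± 0.56, SE, adjusted p = 0.0457). Without Olig2cre/cre replicate 2, or Olig2cre/+ replicate 1, 2 or 3, 116, 10, 9 and 69 of all 14606 tested probes were called. The Rgs5 call was lost in each of these fits (adjusted p = 0.0770, 0.120, 0.188 and 0.106). It was also lost with cyclic loess (adjusted p = 0.0551), without background correction (0.0617), with the table that the authors normalized (0.0615) and with no detection filter (0.0961), while the difference stayed between 2.11 and 3.12 in the 14 alternatives tried.

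Both subunits of the vascular potassium channel had higher means in Olig2cre/cre, and neither passed. Kcnj8 read 6.64, 7.80 and 7.69 in Olig2cre/cre replicates 1 to 3, against 6.14, 6.74 and 5.61 in Olig2cre/+ replicates 1 to 3. Olig2cre/cre replicate 1 lay below Olig2cre/+ replicate 2, so the groups overlapped (difference 1.21 ± 0.42, SE, adjusted p = 0.135), and the difference was 0.54 both without background correction and on the authors' table. The brightest Abcc9 probe, ILMN_3104271, read 6.56, 7.63 and 7.52 in Olig2cre/cre and 5.66, 6.45 and 5.15 in Olig2cre/+, where it was detected on 2 of 3 arrays. Its groups did not overlap (difference 1.48 ± 0.43, SE, adjusted p = 0.0927), and the difference was 0.59 without background correction. The order of the 3 tumours within each genotype was the same as for Kcnj8, with replicate 1 the lowest of the Olig2cre/cre tumours and replicate 3 the lowest of the Olig2cre/+ tumours. Without Olig2cre/cre replicate 3 the difference was 1.05 for Kcnj8 and 1.34 for this Abcc9 probe (adjusted p = 0.207 and 0.131). Without Olig2cre/cre replicate 1 it was 1.58 and 1.82 (adjusted p = 0.0852 and 0.0767).

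A further Abcc9 probe, ILMN_2623859, read 5.95, 5.77 and 6.00 in Olig2cre/cre, all detected, and 4.98, 4.85 and 5.02 in Olig2cre/+, none detected. The measured difference was 0.96 ± 0.22 (SE, limma adjusted p = 0.0558). It was at least 1.49-fold higher in Olig2cre/cre, a bound taken from the Olig2cre/cre mean against, per Olig2cre/+ array, the lowest level of any detected probe. The bound depends on the background correction, since the log2 difference was 0.27 without it and with the authors' table, less than the bound of 0.58 on that scale. The third Abcc9 probe, ILMN_1233056, was not detected in any tumour. Of the channel's counterparts in other tissues, the pore gene Kcnj11 was not analysed here and the receptor gene Abcc8 differed by -0.77 ± 0.46 (SE, adjusted p = 0.346).

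Acta2, smooth muscle α-actin, was measured by 4 probes, and all 4 lay higher in every Olig2cre/cre tumour than in any Olig2cre/+ tumour. The brightest, ILMN_2693895, read 11.55, 11.00 and 9.94 in Olig2cre/cre replicates 1 to 3, against 9.21, 9.50 and 9.37 in Olig2cre/+ replicates 1 to 3. Olig2cre/cre replicates 1 and 2 were well above the other genotype, and replicate 3 lay only 0.58 above the Olig2cre/+ mean. The difference was 1.47 ± 0.41 (SE, adjusted p = 0.0882), or 2.77-fold. Over the 4 probes the difference ran from 1.10 to 1.47 and the adjusted p from 0.0661 to 0.117. Without background correction the brightest probe differed by 1.31 and the other 3 by 0.50 to 0.72. Replicate 3 was the lowest Olig2cre/cre tumour for each of the 4. Without it all 4 passed, the brightest at 1.91 (adjusted p = 0.0122), and the members called were 5 of 9 probes, where 5.85% of all tested probes were then called higher. Leaving out Olig2cre/cre replicate 1 gave differences of 0.97 to 1.21, and none of the 4 passed (adjusted p = 0.132 to 0.224). None passed either without Olig2cre/cre replicate 2 or without Olig2cre/+ replicate 1, 2 or 3 (adjusted p = 0.148 to 0.297). The probes share 1 transcript and are no separate evidence of each other.

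Values of other actin genes are given beside Acta2 and were chosen for mention after their values were seen. Acta1, skeletal muscle actin, was 4.54, 5.63 and 6.77 in Olig2cre/cre, detected on 2 of 3 arrays, and 7.37, 7.84 and 9.07 in Olig2cre/+ (difference -2.45 ± 0.65, SE, adjusted p = 0.0778). The cytoskeletal actin gene Actb differed by 0.00 ± 0.22 (SE, adjusted p = 0.996). Of 8 striated muscle markers, 6 were not detected in any tumour. Whether the Acta2 probes also bind other actin transcripts is not known here.

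**Figure D2:**
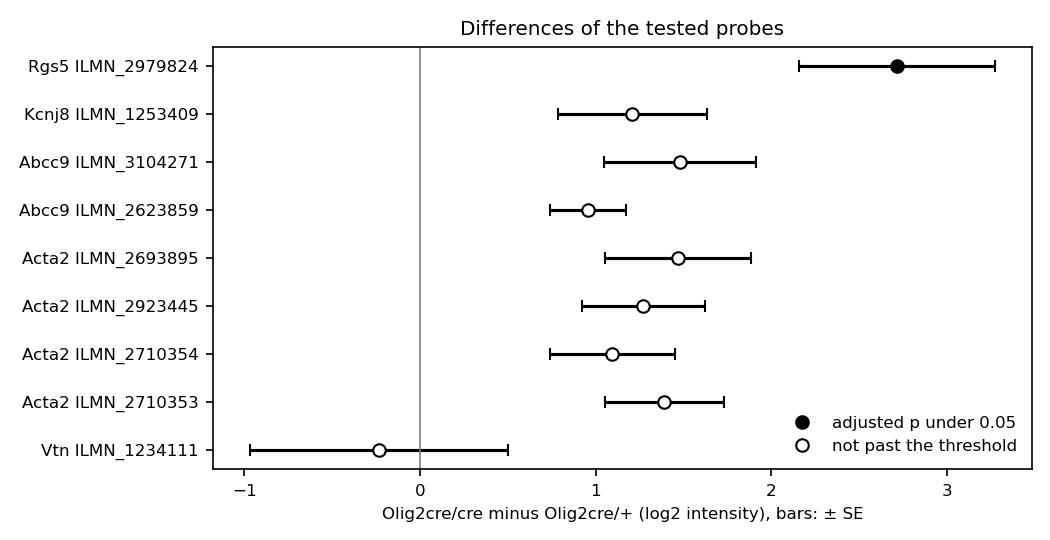
Log2 difference, Olig2cre/cre minus Olig2cre/+, of the 9 tested probes, with bars of 1 SE from the limma fit (n = 3 per group); the filled point is past the threshold. Rgs5 lies at 2.72, the other probes of Kcnj8, Abcc9 and Acta2 between 0.96 and 1.48, and Vtn at -0.23.

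The other contractile genes gave little signal. Tagln, which encodes the actin-binding protein transgelin, was not detected in any tumour. Its uncorrected signals were 168, 178 and 172 in Olig2cre/cre (detection p 0.102, 0.0602 and 0.0977) and 145, 164 and 149 in Olig2cre/+ (0.496, 0.406 and 0.484). No fold is given, since both genotypes were below detection. Cnn1, calponin, was likewise not detected on any array. Its signals ran from 135 to 151 in Olig2cre/cre and from 152 to 167 in Olig2cre/+. Myh11, the smooth muscle myosin heavy chain, was detected in 1 tumour, Olig2cre/cre replicate 1, at 6.26, where the other 5 values lay between 4.63 and 5.10. Tagln, Cnn1 and Myh11 were therefore near or below the detection limit of their probes. Rgs5, Vtn and the brightest Acta2 probe lay well above it in all 6 tumours. In Olig2cre/+ tumours Kcnj8 (5.61 to 6.74) and Abcc9 ILMN_3104271 (5.15 to 6.45) came near the lowest level of any detected probe, 5.23 to 5.40 per array.

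Anpep, also known as a surface marker of some myeloid cells and fibroblasts, was detected only in Olig2cre/cre replicate 1, at 5.85. Its other Olig2cre/cre values were 5.01 and 5.18, and it read 4.65, 5.18 and 5.01 in Olig2cre/+. Vtn was detected in all 6 tumours, and unlike the other tested members it had a lower mean in Olig2cre/cre. It read 7.66, 10.23 and 10.32 in Olig2cre/cre replicates 1 to 3, and 8.97, 9.79 and 10.16 in Olig2cre/+ replicates 1 to 3. The groups overlapped widely, and Olig2cre/cre replicate 1 was the lowest of the 6 tumours (difference -0.23 ± 0.73, SE, adjusted p = 0.878). Without that tumour the Vtn difference was 0.64 (adjusted p = 0.394), and without Olig2cre/+ replicate 3 it was 0.03 (adjusted p = 0.991).

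The members thus differed from one another in which Olig2cre/cre tumour was high. Relative to the Olig2cre/+ mean, Olig2cre/cre replicate 1 was at 3.94 for Rgs5 and 2.19 for the brightest Acta2 probe, but at 0.47 for Kcnj8 and -1.98 for Vtn. Replicate 2 was at 1.91 for Rgs5, 1.64 for Acta2, 1.63 for Kcnj8 and 0.59 for Vtn. In replicate 3 Rgs5 was at 2.30 and Kcnj8 at 1.52, while Acta2 was at 0.58. No test was made of these differences between single tumours.

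**Figure D3:**
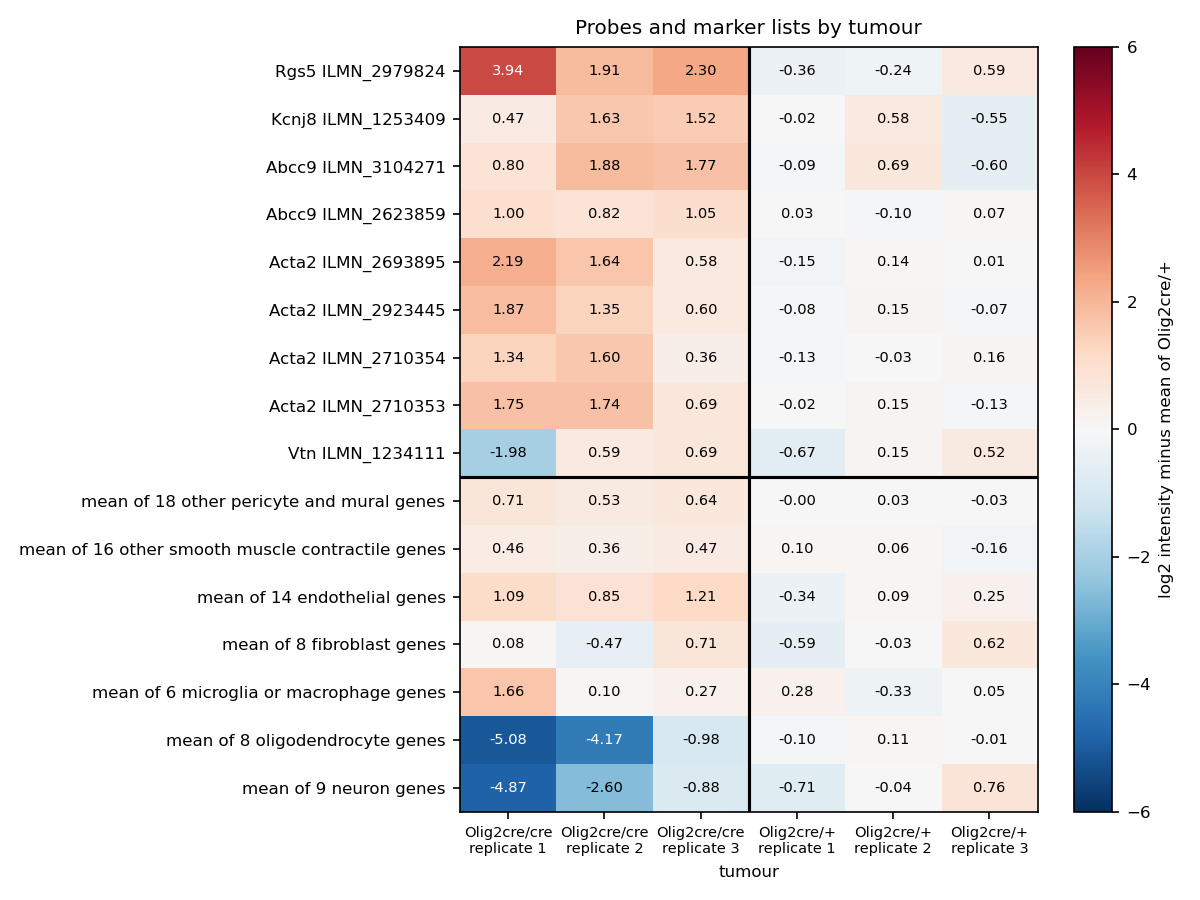
Log2 intensity of each tested probe, and mean of each marker list, minus the mean of the 3 Olig2cre/+ tumours, by tumour, on a colour scale from blue (lower) to red (higher). Olig2cre/cre replicate 1 holds the highest Rgs5 value (3.94) and the lowest Vtn value (-1.98), and the neuron and oligodendrocyte lists are lowest there (-4.87 and -5.08).

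Marker lists of other cell types were read in the same tumours. Of 16 endothelial markers on the array 14 were tested. Their summed linear intensity was 17260 to 23369 in Olig2cre/cre tumours and 6550 to 9429 in Olig2cre/+ tumours, and none was undetected throughout. Of the 14 endothelial markers 5 rose, none fell and 9 did not pass, 10 had higher and 4 lower means, and the median difference was 1.20, against 0.00 over all 9998 tested genes, of which 2.83% were called higher and 1.95% lower. Emcn, an endothelial sialomucin, was 8.33-fold higher, the adhesion molecule gene Pecam1 5.86-fold, the adrenomedullin co-receptor gene Ramp2 3.77-fold and the orphan receptor kinase gene Tie1 3.05-fold (adjusted p = 0.0146 for the first 3 and 0.0295 for Tie1). Tie1 was detected on 1 Olig2cre/+ array, and its fold was 2.69 once each undetected value was set no lower than the dimmest detected probe of that array.

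Neuron markers, 9 tested of 12, summed to 1491, 8311 and 25383 in Olig2cre/cre replicates 1 to 3 and 29435 to 74573 in Olig2cre/+, with Snap25 and Nefl undetected throughout. All 9 had lower means in Olig2cre/cre and none passed. The brain non-coding RNA gene Snhg11 differed by -3.76 ± 0.85 and the synaptic vesicle calcium sensor gene Syt1 by -4.09 ± 1.16 (SE, adjusted p = 0.0564 and 0.0884). Syt1 was detected on 2 of 3 Olig2cre/cre arrays. Oligodendrocyte markers, 8 tested of 10, summed to 2462, 7622 and 49301 in Olig2cre/cre replicates 1 to 3 and 60830 to 70592 in Olig2cre/+, with Ermn undetected. In both lists the highest Olig2cre/cre sum was that of replicate 3. Of the 8, 2 fell and 6 did not pass, where 1.95% of all tested genes were called lower. The myelin genes that fell were Opalin, detected on 1 Olig2cre/cre array, and Cnp (differences -5.17 ± 0.70 and -2.01 ± 0.39, SE, adjusted p = 0.0173 and 0.0411). The size of the Opalin difference depends on the background correction, since without it the difference was -3.30 (limma adjusted p = 0.0127).

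Fibroblast markers, 8 tested of 12, summed to 6018 to 31728 in Olig2cre/cre and 7198 to 18740 in Olig2cre/+, none passed, the median difference was 0.12, and Col1a2 and Postn were undetected throughout. Mgp, the matrix Gla protein gene, which smooth muscle also makes, was 5.46-fold higher in Olig2cre/cre with no overlap (adjusted p = 0.0521). The collagen gene Col3a1 was undetected in all Olig2cre/+ tumours, entered the test through its 3 Olig2cre/cre arrays, and exceeded the Olig2cre/+ level at least 1.63-fold. That bound is of the kind that for Abcc9 ILMN_2623859 depended on the background correction. The measured Col3a1 difference was 1.23 ± 0.34 (SE, limma adjusted p = 0.0862). Microglia and macrophage markers, 6 tested of 10, all had higher means in Olig2cre/cre and none passed, with a median of 0.72. They summed to 5483 to 15685 in Olig2cre/cre, highest in replicate 1, and to 3929 to 5912 in Olig2cre/+. P2ry12, a purine receptor gene of resting microglia, differed by 1.16 ± 0.41 and the complement gene C1qa by 0.77 ± 0.41 (SE, adjusted p = 0.137 and 0.289). Of 7 tested astrocyte markers of 8 none passed, the median was 0.27, and the sums were 51436 to 69104 in Olig2cre/cre and 41154 to 52429 in Olig2cre/+. The intermediate filament gene Gfap differed by 1.63 ± 0.45 and the water channel gene Aqp4 by -1.31 ± 0.43 (SE, adjusted p = 0.0860 and 0.120). No microglia or astrocyte marker on the array was undetected throughout. The part of these cell types in the levels of the mural genes was not tested.

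The wider set of mural genes was read from a list of 24 pericyte and mural genes outside the 10, of which 18 were tested. Of these, 4 rose, none fell and 14 did not pass, where 2.83% of all tested genes were called higher and 1.95% lower. Groups did not overlap for 9 with Olig2cre/cre the higher, as for 16.1% of all tested genes. They did not overlap for 1 with it the lower, as for 1639 of all 9998 tested genes. Means were higher for 12 and lower for 6, and the median difference was 1.02. The summed linear intensity of the 18 overlapped between genotypes. It was 8069 to 8448 in Olig2cre/cre and 6666 to 14238.5 in Olig2cre/+, highest in Olig2cre/+ replicate 3. A linear sum follows its brightest genes, which in that tumour were Rgs4 (12.57) and Gucy1a1 (12.12). Both had lower means in Olig2cre/cre, so the overlap of the sums does not describe most of the 18. Rgs4, named after its value was seen, differed by -1.19 ± 0.57 (SE, limma adjusted p = 0.249). Art3, an ADP-ribosyltransferase gene, read 10.65, 9.65 and 8.84 in Olig2cre/cre and 6.63, 6.42 and 6.50 in Olig2cre/+, 9.17-fold apart (adjusted p = 0.0182). Its groups were far apart, and Olig2cre/cre replicate 3 was the lowest of its genotype. Gja4, a connexin gene of gap junctions in arterial walls, read 9.16, 8.60 and 9.02 in Olig2cre/cre and 6.32, 6.84 and 6.90 in Olig2cre/+, 4.72-fold apart (adjusted p = 0.0172). The nucleotide-sugar receptor gene P2ry14 rose 3.29-fold and the transcription factor gene Ebf1 3.04-fold (adjusted p = 0.0419 and 0.0393). On the lower side, named after their values were seen, were the nitric oxide receptor subunit genes Gucy1b1, whose groups did not overlap, and Gucy1a1 (differences -1.67 ± 0.61 and -1.60 ± 0.63, SE, adjusted p = 0.149 and 0.173).

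Several defining pericyte genes, chosen for mention after their values were seen, did not pass. Pdgfrb, the PDGF receptor by which mural cells are recruited to vessels, read 7.68, 6.63 and 6.71 in Olig2cre/cre and 5.37, 6.50 and 5.76 in Olig2cre/+. It was detected on 2 of 3 Olig2cre/+ arrays. Its groups did not overlap, although Olig2cre/+ replicate 2 came close to the Olig2cre/cre values (difference 1.13 ± 0.41, SE, adjusted p = 0.144). Cox4i2, a cytochrome oxidase subunit gene of pericytes, was not detected in any Olig2cre/+ tumour and was at least 3.69-fold higher in Olig2cre/cre. That bound is of the kind that for Abcc9 ILMN_2623859 depended on the background correction. The measured Cox4i2 difference was 2.13 ± 0.52 (SE, limma adjusted p = 0.0666). It entered the test only through its 3 Olig2cre/cre arrays and is 1 of the 9 genes without overlap. Mean levels of Cspg4, the NG2 proteoglycan gene also made by oligodendrocyte precursors, were 7.34 ± 0.62 in Olig2cre/cre and 8.30 ± 0.68 in Olig2cre/+ (SD, n = 3 each, adjusted p = 0.236). Notch3, a receptor of arterial smooth muscle, differed by 0.34 ± 0.40 and the intermediate filament gene Des by -0.22 ± 0.35 (SE, adjusted p = 0.643 and 0.741).

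Among 29 further smooth muscle and actin-cytoskeleton genes, 16 were tested, 3 rose, none fell and 13 did not pass, with a median difference of 0.71. Over all tested genes 2.83% were called higher and 1.95% lower. Lmod1, Synpo2, Pln, Kcnmb1 and Mrtfb were not detected in any tumour. The members that rose are made by many cell types. Pdlim7, an adaptor of actin stress fibres, read 9.94, 9.74 and 9.58 in Olig2cre/cre and 8.09, 8.25 and 7.80 in Olig2cre/+, 3.27-fold apart (adjusted p = 0.0190). The groups were separated by more than their spread. Tpm2, β-tropomyosin, rose 3.69-fold on its brightest probe, which was detected on 2 of 3 Olig2cre/+ arrays (adjusted p = 0.0310; 3.39-fold with the undetected value floored in the same way), while another Tpm2 probe differed by 0.25 ± 0.59 (SE, adjusted p = 0.838). Actn1, α-actinin, rose 2.86-fold and lay just under the threshold (adjusted p = 0.049995). Over both lists 7 of 34 genes rose, where 2.83% of all tested genes were called higher. The count was 0 without Olig2cre/+ replicate 1, 2 or 3, where 10, 9 and 69 of all 14606 tested probes were called. It was 4 without Olig2cre/cre replicate 1 and 1 without Olig2cre/cre replicate 2, where 305 and 116 of all tested probes were called. Without Olig2cre/cre replicate 3, 9 of the 34 rose and 2 fell, where 5.96% of all tested genes were called higher and 7.87% lower. The 2 were the transcription factor gene Zic1 and Ppp1r14a, an inhibitor of myosin phosphatase, both named after their values were seen.

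Ligand and receptor genes of the signalling between endothelium and mural cells, listed as mural recruitment signals, were also read. Of 16 such genes 13 were tested, 1 rose, none fell and 12 did not pass, where 2.83% of all tested genes were called higher and 1.95% lower. The median difference was 0.87, and all 13 had higher means in Olig2cre/cre (50.2% of all tested genes did). Tgfbr2, the type II receptor of TGF-β, read 13.22, 11.80 and 12.32 in Olig2cre/cre and 10.29, 10.08 and 10.44 in Olig2cre/+, 4.51-fold apart (adjusted p = 0.0322). A dimmer Tgfbr2 probe differed by 1.65 ± 0.42 (SE, adjusted p = 0.0718). Pdgfb, the ligand of the receptor encoded by Pdgfrb, differed by 1.04 ± 0.30 (SE, adjusted p = 0.0911), and was mentioned after its value was seen. Partners of the members gave 0 of 8 tested genes past the threshold with limma, with 5 at an unadjusted p under 0.05, as were 26% of all tested genes. Myh9, non-muscle myosin, differed by 1.32 and Itgav, a subunit of vitronectin receptors, by 1.54 (adjusted p = 0.0566 and 0.0685).

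**Figure D4:**
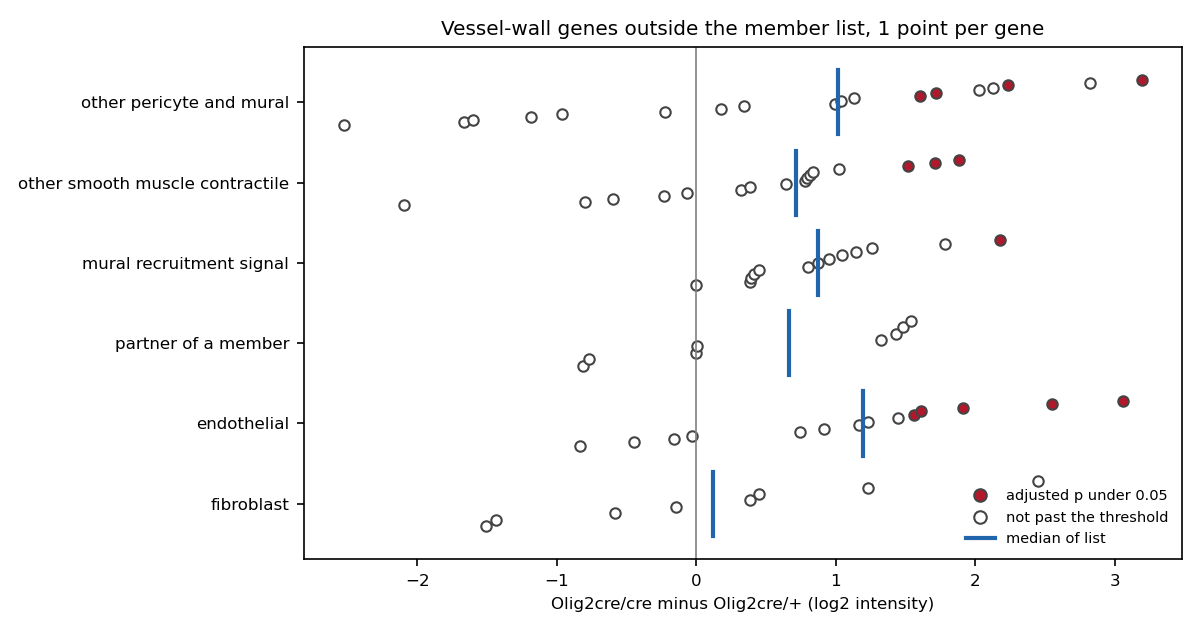
Log2 difference, Olig2cre/cre minus Olig2cre/+, of each tested gene in 6 lists, 1 point per gene on its brightest probe, filled where past the threshold, with the list median as a vertical bar. Medians run from 0.12 for fibroblast to 1.20 for endothelial genes, and every list but that of recruitment signals also holds genes below 0.

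Hypoxia response genes were read because Ndufa4l2, which had no probe, is a target of hypoxia-inducible factors. Of 14 such genes 12 were tested, 1 rose and none fell, where 2.83% of all tested genes were called higher and 1.95% lower. The median difference was 0.49. The gene that rose, the carbonic anhydrase gene Car9, read 9.83, 11.93 and 8.42 in Olig2cre/cre and 5.73, 4.81 and 5.20 in Olig2cre/+, where it was detected on 1 of 3 arrays (28.1-fold, adjusted p = 0.0304). With undetected values floored as for Tie1 the fold was 24.6. Without background correction the log2 difference was 2.87, against 4.81 with it, and Car9 did not pass (adjusted p = 0.0819). The related respiratory subunit gene Ndufa4 differed by 0.00 ± 0.23 (SE, adjusted p = 0.999).

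Over all the lists 16 genes were called. Without Olig2cre/+ replicate 1 or 2 the calls of all 16 were lost, and without Olig2cre/+ replicate 3 those of Emcn and Ramp2 remained. Over all 14606 tested probes 10, 9 and 69 were called without Olig2cre/+ replicate 1, 2 and 3, against 645 with all 6 tumours. Without Olig2cre/cre replicate 1, 2 or 3, 8, 6 and 16 of the 16 genes remained, where 305, 116 and 1922 of all tested probes were called. Without background correction 11 remained, and Ebf1, Tpm2, Actn1, Tie1 and Car9 did not.

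Genes with the most similar pattern were ranked by Pearson correlation, over the 6 tumours, with the mean standardized level of the 5 tested member genes. The mean profile was 0.23, 0.86 and 0.66 in Olig2cre/cre replicates 1 to 3 and -0.81, -0.28 and -0.66 in Olig2cre/+ replicates 1 to 3. The 8 nearest were the collagen gene Col26a1 (r = 0.992), the phospholipase C gene Plcd1 (0.986), Mfsd10 (0.985), the phosphodiesterase gene Pde4a (0.983), Wdfy2 (0.982), the homeobox gene En2 (0.975), the demethylase-family gene Jmjd1c (0.972) and the PDZ-LIM gene Pdlim1 (0.972). These correlations describe 6 tumours that share the split by genotype.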

How the data were processed

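Transcripts of 6 tumours were measured on Illumina bead arrays with biotinylated cRNA, per the labels' protocols. The authors deposited linear signal intensity per probe without background subtraction or normalization between arrays, with a detection p-value beside each signal, per the file headers. Lowest signals per array were 118.8 to 130.4. A deposited table of normalized intensity equals the quantile-normalized signals, with replicate numbers 1 and 3 exchanged within both genotypes; its scale is linear and not centred, with a median of 193.8 in each column, and replicate numbers follow the signal table, so which of them were taken at 45 and at 47 days is uncertain. Neither software nor genome build is given in the sources used here.

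Signals were corrected with normexp, with control-probe statistics estimated through the detection p-values, then an added offset of 16, quantile normalization and a log2 transform (neqc, limma 3.58.1, R 4.3.3). The 14606 probes detected on at least 3 arrays were fitted with genotype as the only term (lmFit, eBayes, two-sided), with Benjamini-Hochberg adjustment over all of them, and the procedure was tested on simulated data. The number of arrays limits the precision. Of 25697 probes, 23978 had 1 gene symbol, 0 several and 1719 none; 23962 were matched by gene identifier to GRCm38.p6 names. Outside the 10 members, a gene was represented by its brightest tested probe. Members and lists were chosen with earlier results of these data known. Genes named were the members, up to 4 called genes per list by smallest p (or 2 where none passed), and the 8 most similar in pattern; exceptions are marked. Alternatives covered background correction, normalization, offset, detection filter, replicate block, array weights and leaving out each tumour.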

Additional observations from a re-analysis of the deposited data

How the results depend on the processing

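With cyclic loess, without background correction and with the table that the authors normalized, 0 member probes passed, against 1 as reported; with the replicate block 2 passed and with array weights 5, and without each tumour in turn 0 to 5. With no detection filter the 1 member probe past the threshold was Abcc9 ILMN_2623859 (adjusted p = 0.0445). Over all probes 645 passed as reported, 410 without background correction, 411 with the authors' table, 230 without a detection filter, 1382 with the replicate block, 1860 with array weights and 9 to 1922 without each tumour in turn. Of the other mural and contractile genes 7 passed as reported, 4 without background correction, 4 with the authors' table, 3 without a detection filter, 8 with the replicate block (and Ppp1r14a lower), 11 with array weights and 0 to 11 without each tumour in turn (0 without each Olig2cre/+ tumour, 1 without Olig2cre/cre replicate 2). The cause of these changes was not tested. The Vtn difference of -0.23 ran from -0.69 to 0.64 over the 14 alternatives, positive at 0.64 and 0.03 without Olig2cre/cre replicate 1 and Olig2cre/+ replicate 3. All other tested member probes kept their direction in every alternative that tested them, but without background correction Kcnj8, both Abcc9 probes and 3 Acta2 probes were at 0.54, 0.59, 0.27 and 0.50 to 0.72. Same-numbered tumours, which share their age in days, deviated together at r = 0.194, 0.0168 and 0.302 for numbers 1, 2 and 3. The closest Olig2cre/+ tumour was number 1 for Olig2cre/cre replicates 1 and 2, and number 3 for Olig2cre/cre replicate 3. These values do not settle whether the numbers are pairs, and the reported fit left the numbers out. With the replicate block Acta2 ILMN_2710353 passed (adjusted p = 0.0466). Probes near background limit what can be said of Tagln, Cnn1, Myh11 and Anpep.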
